A study of Homo sapiens with 6 samples.

Results

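Gluconeogenesis and glycogen metabolism are represented here by 10 genes, PCK1, PCK2, FBP1, PC, G6PC3, SLC37A4, GYS1, PYGL, GBE1 and UGP2. They were taken by symbol from the 60675 genes counted in PLC/PRF/5 cells, which come from a human hepatocellular carcinoma and are written PLC/PRF5 in the sample labels. All 10 were among the counted genes, and 9 passed the filter on low counts. FBP1 did not. The question was whether these genes move opposite to the glycolytic genes when MTR4, an RNA helicase of the nuclear exosome, is knocked down. None of the 9 tested genes passed the test as higher after knockdown, beside 1.48% of all tested genes. PC and GBE1 passed it as lower, as did 9 of 23 tested glycolytic genes, beside 2.12% of all tested genes. The calls of PC and GBE1 were lost relative to ACTB and in most fits that left a library out.

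The data are the numbers of RNA-seq reads per gene in 3 control libraries and 3 MTR4 knockdown (MTR4 KD) libraries, all from PLC/PRF/5 cells grown in DMEM with 10% fetal bovine serum. The group names are those of the labels, which give neither the hairpin nor a time. The study's text describes cells before and after induction of an shRNA against MTR4 by doxycycline, while the labels name no doxycycline. The paper reports no effect of doxycycline on the glycolytic genes it measured in cells with an inducible scramble shRNA. No such cells are among these libraries. If doxycycline was used, an effect of the inducer and an effect of the knockdown cannot be told apart here. Nothing in the labels says that the replicates were separate cultures, and the p-values then measure the spread between these libraries, which may be technical.

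Gluconeogenesis makes glucose from pyruvate, lactate, alanine and glycerol, and in the body it is mainly a task of liver and kidney. Most of its enzymes are those of glycolysis run in reverse, and only the irreversible steps need enzymes of their own. Pyruvate carboxylase (PC) and the phosphoenolpyruvate carboxykinases PCK1 (cytosolic) and PCK2 (mitochondrial) bypass pyruvate kinase, FBP1 bypasses phosphofructokinase, and glucose 6-phosphatase bypasses hexokinase. Glucose 6-phosphate is carried into the endoplasmic reticulum by SLC37A4 and hydrolysed there by G6PC1, the liver enzyme, or by the widely expressed G6PC3. Glycogen is built from UDP-glucose, the product of UGP2, by glycogen synthase (GYS1 in muscle and most tissues, GYS2 in liver) and the branching enzyme GBE1, and it is broken down by glycogen phosphorylase, of which PYGL is the liver form.

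The libraries held between 60686786 and 72708682 reads on genes. Values given for single libraries stand in the order of replicates 1, 2 and 3. Alignments that were not unique were 34.7% to 37.5% of the entries in MTR4 KD replicate 3 and control replicates 1 and 3, and 14.8% to 18.2% in control replicate 2 and MTR4 KD replicates 1 and 2. These are called here the rich and the poor class in non-unique reads, and each held both conditions. MTR4 (symbol MTREX) itself went from 78.0 ± 8.25 CPM (SD, n = 3; CPM are read counts scaled to the same TMM-adjusted library total) to 45.8 ± 2.60 CPM (SD, n = 3), a log2 fold change of -0.77 (adjusted p = 0.00641, edgeR). The 20 hepatocyte markers, all above 1 CPM in at least 1 library, summed to between 40390 and 42420 CPM in the controls and between 40780 and 43210 CPM in the MTR4 KD libraries. Of them TTR, APOA1 and ALB were higher and KRT18 was lower in the MTR4 KD libraries at an adjusted p under 0.05. The call of KRT18 was lost without any 1 of the 6 libraries (adjusted p between 0.0573 and 0.240, edgeR) and that of ALB without any but MTR4 KD replicate 3 (0.0624 to 0.215), and both were lost in the fit with a replicate block (0.0629 and 0.0589). That of TTR was lost without control replicate 1 or 3 or MTR4 KD replicate 2 (0.0501 to 0.0543), and that of APOA1 without control replicate 3 or MTR4 KD replicate 2 (0.0663 and 0.0707). The 10 fibroblast markers summed to between 21.2 and 38.1 CPM in the controls and between 13.9 and 19.4 CPM after knockdown, with VIM called lower, a call lost without any library except control replicate 2 (adjusted p between 0.0701 and 0.196, edgeR), and 5 of them under 1 CPM in every library. The 9 leukocyte and endothelial markers summed to at most 6.25 CPM in any library, with 5 under 1 CPM in every library. The part of these shifts in the results was not tested. Counts cannot tell fewer cells of a kind from less RNA per cell.

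A gene was called when its adjusted p was under 0.05 in the quasi-likelihood test of edgeR, with Benjamini-Hochberg adjustment over all 18075 tested genes and no term but condition. SE is the standard error of a log2 fold change. After knockdown 1.48% of all tested genes were called higher and 2.12% lower. Among the 9 tested genes 0 were called higher and 2 lower, and at an unadjusted p under 0.05 it was 1 higher (PYGL) and 3 lower (PC, GBE1 and GYS1). Their median log2 fold change was -0.16, beside 0.01 for all tested genes, and it was -0.10 with the library class as a covariate or without MTR4 KD replicate 1. Every MTR4 KD library lay below every control library for PC, GYS1 and GBE1, and above for 0 of the 9, beside 12.6% and 12.1% of all tested genes. With the library class as a covariate 9.43% of all tested genes were called higher and 10.8% lower, and among the 9 genes it was PYGL that was called higher and PC, GBE1 and GYS1 that were called lower. The plot of each library shows how tightly the knockdown values of PC and GBE1 lay together, and how the values of PCK1, PCK2 and UGP2 mixed with those of the controls.

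**Figure D1:**
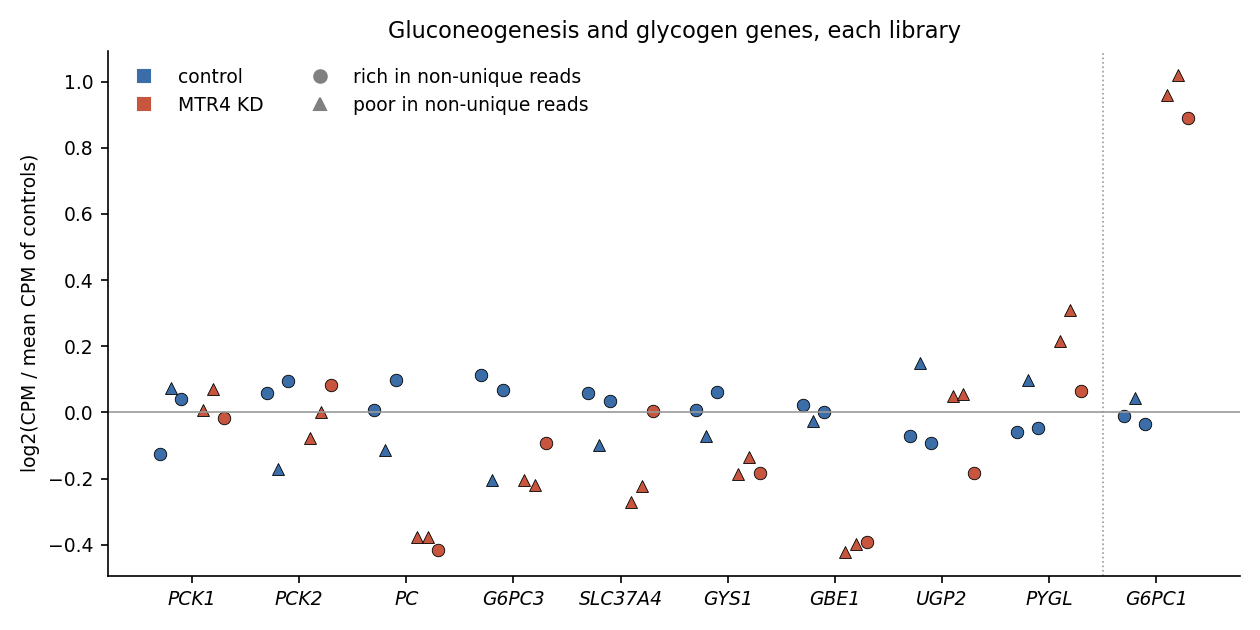
Expression of the 9 tested genes and of G6PC1 in each library, as the log2 of its CPM over the mean CPM of the 3 controls (y axis; 0 is the control mean). Each point is 1 library, coloured by condition and shaped by library class. The MTR4 KD points of PC and GBE1 lie near -0.4, those of G6PC1 between 0.8 and 1.1, and those of PCK1 and PCK2 among the controls.

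Divided by the length of the gene's exons (CPM per kb), PCK1 was the most highly expressed of the 10 genes in the controls, with 38.8 ± 2.82 CPM per kb (SD, n = 3). PCK2 (23.9 ± 2.32), GBE1 (23.0 ± 0.359), GYS1 (21.2 ± 0.978) and UGP2 (20.5 ± 1.93 CPM per kb) followed, then PC (13.5 ± 0.989) and PYGL (13.1 ± 0.812 CPM per kb), and then SLC37A4 (9.42 ± 0.544) and G6PC3 (8.42 ± 0.967 CPM per kb; SD, n = 3 for each). The neighbours PCK2 and GBE1, GYS1 and UGP2, PC and PYGL, and SLC37A4 and G6PC3 differed by less than their SDs added together. FBP1 stood apart at 0.0142 CPM per kb. The length used is the union of all annotated exons of a gene, so this order depends on the annotation. In CPM without division by length, PCK1 (265 ± 19.3) was also highest in the controls, and UGP2 (139 ± 13.1) came next. G6PC3 (64.3 ± 7.38), SLC37A4 (61.3 ± 3.54) and PYGL (59.7 ± 3.69 CPM; SD, n = 3 for each) were then the lowest of the tested genes. In the MTR4 KD libraries GBE1 (17.4 ± 0.196 CPM per kb) stood below UGP2 (20.2 ± 1.87) and GYS1 (18.9 ± 0.370), and PC (10.3 ± 0.159) stood below PYGL (15.1 ± 1.28 CPM per kb; SD, n = 3 for each). The 9 tested genes were well covered, with between 3119 and 20215 reads per library.

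The sequences before the start sites of PC and GBE1, the genes of the list that fell, and of G6PC1, the pathway gene outside the list with the larger of 2 called rises, are given for reference. They are RefSeq promoters on GRCh38, from 250 bases before to 50 bases after the annotated start, 5′ to 3′ on the gene's strand. Capitals mark ACGTG or its reverse complement CACGT, letters found at the core of hypoxia response elements. Other forms of that core were not searched. PC has 3 annotated promoters, and the one shown is at chr11:66958334-66958633, minus strand, with matches starting 184 and 163 bases before the start. The GBE1 promoter is at chr3:81761596-81761895, minus strand, with 1 match at 112 bases before the start. The G6PC1 promoter is at chr17:42900549-42900848, plus strand, with 1 match at 88 bases before the start.
PC: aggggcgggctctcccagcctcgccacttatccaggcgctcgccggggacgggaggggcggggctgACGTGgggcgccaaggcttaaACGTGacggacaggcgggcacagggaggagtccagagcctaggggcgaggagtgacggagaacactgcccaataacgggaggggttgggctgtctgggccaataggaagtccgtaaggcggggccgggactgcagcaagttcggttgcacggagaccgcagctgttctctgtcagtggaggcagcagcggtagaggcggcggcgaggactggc
GBE1: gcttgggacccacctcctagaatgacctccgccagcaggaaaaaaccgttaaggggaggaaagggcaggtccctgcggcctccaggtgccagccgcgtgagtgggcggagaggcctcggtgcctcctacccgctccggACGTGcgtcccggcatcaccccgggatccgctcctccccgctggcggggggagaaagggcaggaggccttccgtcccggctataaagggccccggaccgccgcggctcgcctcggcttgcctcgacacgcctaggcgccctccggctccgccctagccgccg
G6PC1: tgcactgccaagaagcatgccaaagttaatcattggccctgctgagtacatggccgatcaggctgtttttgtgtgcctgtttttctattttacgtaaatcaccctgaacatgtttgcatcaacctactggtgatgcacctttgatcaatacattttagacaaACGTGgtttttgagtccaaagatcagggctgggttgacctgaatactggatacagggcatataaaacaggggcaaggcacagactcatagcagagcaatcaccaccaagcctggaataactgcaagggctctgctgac

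The promoter table held 15 windows for 9 of the 10 genes, with no entry for PCK1. ACGTG, read on both strands, was found in 6 of the 15 windows (40.0%), beside 21.4% of all 35116 promoters of this length. These windows belong to 4 genes (PC, G6PC3, GBE1 and UGP2), and the 3 windows of G6PC3 overlap one another and share their matches. By gene it was 4 of 9, beside 24.9% of the 27305 genes with a promoter in the table. Both listed genes that fell hold the letters, and so do G6PC3 and UGP2, which were not called. PC holds them only in the window shown, and its other annotated windows do not. UGP2 too has a window without them. Outside the list, G6PC1 and PPP1R3C hold them too, while GOT1 and PPP1R3G, which were called lower, do not, and PPP1R3E had no entry. CACGTG, which contains ACGTG, was in 3 windows, all of G6PC3 (7.26% of all promoters). The cAMP response element TGACGTCA was in 0 windows (1.85% of all), its shorter form TGACG in 2 (24.6% of all) and CCAAT in 8 (34.6% of all). A match is a stretch of letters and not a site shown to be bound.

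The entry of pyruvate into gluconeogenesis gave one gene that fell and a pair that did not pass the test. PC (ENSG00000173599, chromosome 11, 66848420 to 66958383 on GRCh38) codes for the mitochondrial enzyme that makes oxaloacetate from pyruvate. Its expression was 99.2, 91.2 and 105.6 CPM in the controls and 76.0, 76.0 and 74.0 CPM after knockdown. All MTR4 KD libraries lay below all controls. The mean fell from 98.7 ± 7.22 to 75.3 ± 1.16 CPM (SD, n = 3 each), with a log2 fold change of -0.39 (SE 0.0696, 95% interval -0.55 to -0.23, adjusted p = 0.0306, edgeR). Within the library classes the log2 difference was -0.47 in the class rich and -0.26 in the class poor in non-unique reads, and with the class as a covariate the log2 fold change was -0.36 (adjusted p = 0.000306, edgeR). The call was lost without control replicate 1 or 3 or without MTR4 KD replicate 1, 2 or 3, each left out in turn, with adjusted p between 0.0674 and 0.159 (edgeR), and it held without control replicate 2 (adjusted p = 0.0132). The log2 fold change then lay between -0.45 and -0.34. Of the exon bases of PC 8.51% are shared with LRFN4 on the opposite strand, which stood at 0.279 ± 0.0649 CPM in the controls and 0.130 ± 0.134 CPM after knockdown (SD, n = 3 each).

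PCK1 (ENSG00000124253, chromosome 20, 57561110 to 57568121) codes for the cytosolic enzyme that turns oxaloacetate into phosphoenolpyruvate, the step most often taken as the control point of hepatic gluconeogenesis. It gave 243, 279 and 273 CPM in the controls and 266, 278 and 262 CPM after knockdown. The groups overlapped, with a log2 fold change of 0.02 (95% interval -0.14 to 0.19, adjusted p = 0.906, edgeR). PCK2 (ENSG00000100889, chromosome 14, 24094171 to 24104125), its mitochondrial counterpart, gave 104.1, 88.8 and 106.8 CPM in the controls and 94.8, 100.1 and 105.8 CPM after knockdown. Its groups overlapped too, with a log2 fold change of 0.00 (95% interval -0.20 to 0.21, adjusted p = 0.984, edgeR). PCK1 made up 61.9 ± 3.56% of the summed PCK1 and PCK2 level per length in the controls and 62.2 ± 1.66% in the MTR4 KD libraries (SD, n = 3 each).

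FBP1 (ENSG00000165140, chromosome 9, 94603133 to 94640263) codes for liver fructose bisphosphatase, the enzyme that opposes phosphofructokinase. It had 5, 0 and 0 reads in the controls and 4, 0 and 1 reads after knockdown. These numbers are too low for a fold or a test. A count of 0 allows up to 3 reads, which are worth between 0.0414 and 0.0497 CPM in these libraries, counting error only. The muscle form FBP2 had between 2 and 14 reads per library. Fructose bisphosphatase RNA was thus near the floor in both groups, and a change in it was not detectable at this depth.

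The glucose 6-phosphate system held the largest rise that passed the test among all gluconeogenesis and glycogen genes examined, in a gene that is not one of the 10. G6PC1, the catalytic subunit of liver glucose 6-phosphatase, stood at 205, 213 and 202 CPM in the controls and at 403, 420.1 and 383 CPM after knockdown. No library of one group reached the other group. The log2 fold change was 0.96 (1.94-fold, SE 0.0601, adjusted p = 0.000588, edgeR), and it was called in all 15 alternatives that refit all genes. Within the library classes the log2 difference was 0.91 in the rich and 0.95 in the poor class.

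The partner genes of G6PC1 did not pass the test, and their 95% intervals ended at a log2 fold change of 0.05. SLC37A4 (ENSG00000137700, chromosome 11, 119024112 to 119030877), the glucose 6-phosphate transporter, gave 63.9, 57.3 and 62.9 CPM in the controls and 50.8, 52.5 and 61.5 CPM after knockdown. MTR4 KD replicate 3 lay among the controls, and the log2 fold change was -0.16 (95% interval -0.37 to 0.05, adjusted p = 0.396, edgeR). G6PC3 (ENSG00000141349, chromosome 17, 44070673 to 44076344), the ubiquitous phosphatase, gave 69.6, 55.8 and 67.4 CPM in the controls and 55.8, 55.2 and 60.2 CPM after knockdown. Its groups overlapped through control replicate 2, with a log2 fold change of -0.17 (95% interval -0.39 to 0.05, adjusted p = 0.380, edgeR). Per length, G6PC1 made up 84.9 ± 1.78% of the summed glucose 6-phosphatase level in the controls and 92.5 ± 0.647% in the MTR4 KD libraries (SD, n = 3 each), and G6PC3 went from 15.1 ± 1.79% to 7.53 ± 0.649%. These shares depend on the exon unions used, of 4365 bases for G6PC1 and 7628 bases for G6PC3. In CPM the controls gave 207 ± 5.68 for G6PC1 and 64.3 ± 7.38 for G6PC3 (SD, n = 3 each). Both listed genes share exon bases with a gene on the opposite strand, 23.9% of G6PC3 with HDAC5 (log2 fold change 0.00) and 13.3% of SLC37A4 with TRAPPC4 (log2 fold change -0.12), and whether the counting used strand is not given in the sources used here.

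In glycogen synthesis the branching enzyme fell. GBE1 (ENSG00000114480, chromosome 3, 81489703 to 81761645) codes for the enzyme that sets the branch points of glycogen. It gave 108.4, 105.0 and 106.9 CPM in the controls and 79.8, 81.1 and 81.5 CPM after knockdown. The groups were far apart for their spread, with means of 106.8 ± 1.67 and 80.8 ± 0.913 CPM (SD, n = 3 each). The log2 fold change was -0.40 (SE 0.0534, 95% interval -0.53 to -0.28, adjusted p = 0.0102, edgeR), and it was -0.39 with the library class as a covariate (adjusted p = 1.72e-05). The log2 difference was -0.40 in the rich and -0.38 in the poor class. The call was lost without control replicate 1 or 3 or MTR4 KD replicate 1 or 2, with adjusted p between 0.0630 and 0.0913 (edgeR) and a log2 fold change between -0.41 and -0.39, and it held without control replicate 2 or MTR4 KD replicate 3. The exons of GBE1 overlap no other annotated gene.

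GYS1 (ENSG00000104812, chromosome 19, 48968130 to 48993309), the glycogen synthase of these cells by level, gave 90.5, 85.8 and 94.0 CPM in the controls and 79.2, 82.0 and 79.4 CPM after knockdown. The MTR4 KD libraries lay below the controls, but the log2 fold change of -0.17 (95% interval -0.31 to -0.03) did not pass the test (adjusted p = 0.194, edgeR). It passed with the library class as a covariate (-0.15, adjusted p = 0.0318, edgeR). The liver isoform GYS2 stood at 0.179 ± 0.0410 CPM in the controls (SD, n = 3). UGP2 (ENSG00000169764, chromosome 2, 63840969 to 63891560), which supplies UDP-glucose, gave 132, 154 and 131 CPM in the controls and 144, 145 and 122 CPM after knockdown. Its groups overlapped, with a log2 fold change of -0.02 (95% interval -0.25 to 0.20, adjusted p = 0.926, edgeR).

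In glycogen breakdown, PYGL (ENSG00000100504, chromosome 14, 50905217 to 50944483) gave 57.4, 64.0 and 57.9 CPM in the controls and 69.4, 74.0 and 62.5 CPM after knockdown. Control replicate 2 lay above MTR4 KD replicate 3, while within each library class every MTR4 KD library was above every control. The log2 fold change was 0.20 (95% interval 0.01 to 0.39), which did not pass the test (adjusted p = 0.254, edgeR) and passed with the library class as a covariate (0.14, adjusted p = 0.0468, edgeR). The brain form PYGB, the more highly expressed phosphorylase here, did not pass the test at a log2 fold change of -0.22 (adjusted p = 0.162, edgeR), with every MTR4 KD library below every control, and it passed as lower with the library class as a covariate (-0.18, adjusted p = 0.0169, edgeR). PYGL made up 29.9 ± 2.81% of the phosphorylase level per length in the controls and 36.1 ± 2.11% in the MTR4 KD libraries (SD, n = 3 each).

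Set against glycolysis, the 2 calls among the listed genes went the same way as most of the glycolytic calls. Of 28 glycolytic genes 23 were tested, and 9 were called lower and 1 higher. Their median log2 fold change was -0.32, and 19 of the 23 had a negative log2 fold change, beside 6 of the 9 gluconeogenesis and glycogen genes. Of all 18075 tested genes 8841 had a negative log2 fold change. Taken library by library against the control mean, the median log2 difference of the 9 genes was -0.19, -0.14 and -0.09 after knockdown, and that of the glycolytic genes was -0.31, -0.27 and -0.39. In the controls the 9 genes gave medians of 0.01, -0.07 and 0.04. Relative to ACTB, whose own log2 fold change was -0.19 (adjusted p = 0.192, edgeR), the median of all genes moved by 0.19, PC stood at -0.20 (adjusted p = 0.165) and GBE1 at -0.21 (adjusted p = 0.156), neither called, and the small negative values of GYS1, G6PC3, SLC37A4 and UGP2 turned positive.

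**Figure D2:**
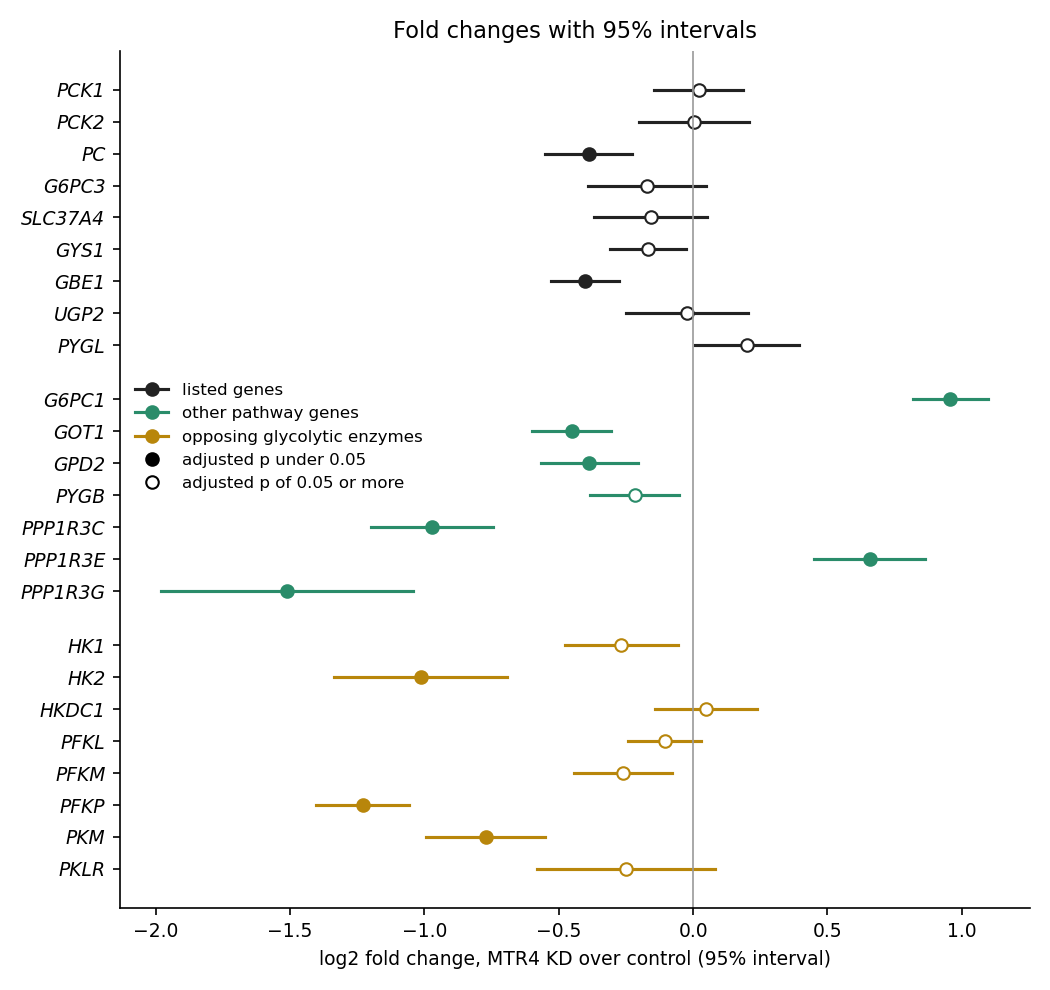
Log2 fold changes between MTR4 KD and control (x axis) with 95% intervals from edgeR's quasi-likelihood fit, for the 9 tested genes, other genes of the same pathways and the glycolytic enzymes that oppose them; filled points passed the test. PC (-0.39) and GBE1 (-0.40) lie left of 0, G6PC1 (0.96) and PPP1R3E (0.66) right of it, and the largest falls among the opposing enzymes are those of PFKP (-1.23), HK2 (-1.01) and PKM (-0.77).

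The balance of opposing enzymes can also be read at each irreversible step, as their ratio within a library. Such a ratio also changes when a single side moves or when both sides fall unequally, so it does not by itself show opposite movement. Expression per length was summed over the isozymes of each side, and 5 such ratios were compared by a two-sided exact permutation test, for which 3 libraries against 3 cannot give a p under 0.1. The ratio of glucose 6-phosphatase (G6PC1, G6PC2 and G6PC3) to hexokinase RNA was higher in every MTR4 KD library than in every control. Its log2 value was 1.15 ± 0.0614 in the controls and 2.08 ± 0.0853 in the MTR4 KD libraries (SD, n = 3 each), a difference of 0.93 or 1.91-fold (exact permutation p = 0.1, 0.125 after adjustment over the 5 ratios). The phosphatase side went from 55.9 ± 0.592 to 99.6 ± 3.89 CPM per kb, and the hexokinase side was 25.2 ± 1.20 and 23.6 ± 2.17 CPM per kb (SD, n = 3 each). On that side HK2 fell (log2 fold change -1.01, adjusted p = 0.0112, edgeR) and HKDC1, with 66.9 ± 1.21% of the hexokinase level in the controls, did not pass the test (0.05, adjusted p = 0.805). The call of HK2 was lost without control replicate 1 or without MTR4 KD replicate 1 or 2 (adjusted p between 0.0512 and 0.0626, edgeR).

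At the pyruvate step the ratio of PCK1 and PCK2 to the pyruvate kinases PKM and PKLR also separated the groups, and it did so with PCK1 and PCK2 levels whose means differed by less than their SDs. The log2 ratio was -1.50 ± 0.150 in the controls and -0.73 ± 0.0776 in the MTR4 KD libraries (SD, n = 3 each), a difference of 0.76 or 1.70-fold (exact permutation p = 0.1, adjusted 0.125). PCK1 and PCK2 together stood at 62.8 ± 2.56 CPM per kb in the controls and 63.4 ± 1.54 CPM per kb in the MTR4 KD libraries, whereas PKM and PKLR stood at 177.9 ± 20.8 and 105.5 ± 5.55 CPM per kb (SD, n = 3 each). PKM fell, with a log2 fold change of -0.77 (adjusted p = 0.00758, edgeR), and its call was lost without control replicate 1 or without MTR4 KD replicate 1 or 2 (adjusted p between 0.0562 and 0.0651, edgeR). The ratio of PC to the same pyruvate kinases, which shares this denominator, was 0.36 higher on the log2 scale in the MTR4 KD libraries (exact permutation p = 0.1, adjusted 0.125), although PC itself fell. The ratio of fructose bisphosphatase to phosphofructokinase rests on 2 to 14 reads per library, and its difference of -0.27 (exact permutation p = 0.7) is not read further.

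The balance of glycogen synthase to glycogen phosphorylase RNA moved little. Its log2 ratio was -1.05 ± 0.0171 in the controls and -1.14 ± 0.0183 in the MTR4 KD libraries (SD, n = 3 each), a difference of -0.09 (exact permutation p = 0.1, adjusted 0.125) with no overlap between the groups. With only the most highly expressed isozyme of each side, GYS1 and PYGB, the difference was 0.05. In the library classes rich and poor in non-unique reads, the differences in the ratios were 1.00 and 0.95 for glucose 6-phosphatase, 0.77 and 0.63 for PCK1 and PCK2, 0.29 and 0.34 for PC, and -0.08 and -0.08 for glycogen.

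**Figure D3:**
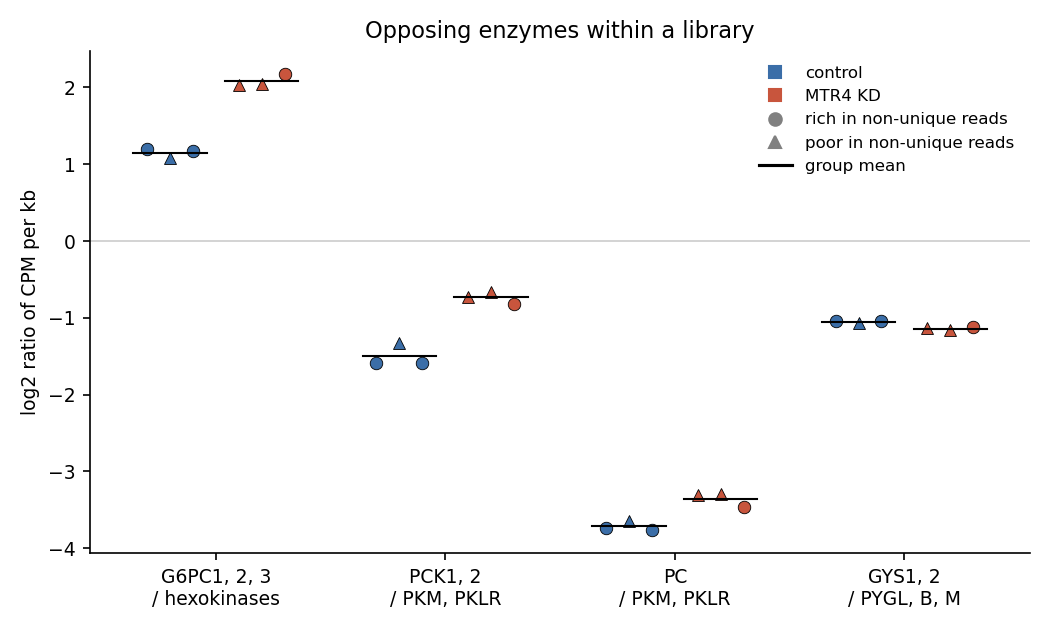
Log2 ratio of the summed CPM per kb of opposing enzymes (y axis) in each library, for the 4 ratios with enough reads on both sides. Points are libraries, coloured by condition and shaped by library class, and lines are group means. The means differ by 0.93 for glucose 6-phosphatase over hexokinase, 0.76 for PCK1 and PCK2 over pyruvate kinase, 0.36 for PC over pyruvate kinase and -0.09 for glycogen synthase over phosphorylase.

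Among 15 other genes of gluconeogenesis and its shuttles, 13 were tested, and 1 was called higher and 2 lower, with a median log2 fold change of -0.06. The gene that rose was G6PC1. GOT1, the cytosolic aspartate aminotransferase of the malate-aspartate shuttle, fell from 80.9 ± 4.45 to 59.1 ± 0.948 CPM (SD, n = 3 each), with a log2 fold change of -0.45 (adjusted p = 0.0120, edgeR). GPD2, the mitochondrial glycerol 3-phosphate dehydrogenase, fell from 72.5 ± 6.47 to 55.5 ± 1.32 CPM (SD, n = 3 each), with a log2 fold change of -0.39 (adjusted p = 0.0427, edgeR). The call of GOT1 was lost without control replicate 1 or 3 or MTR4 KD replicate 1 or 2 (adjusted p between 0.0769 and 0.0934, edgeR). That of GPD2 was lost without any library except control replicate 2 (adjusted p between 0.0630 and 0.177, edgeR). Relative to ACTB neither was called (adjusted p = 0.0989 for GOT1 and 0.288 for GPD2, edgeR), and with total counts GPD2 was not (adjusted p = 0.0511). With the library class as a covariate 5 of these genes were called higher (G6PC1, SLC25A13, GPT, GPD1 and GK) and 3 lower (GOT1, GPD2 and SLC25A12). In that fit 9.43% of all tested genes were called higher and 10.8% lower.

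Among 26 other genes of glycogen metabolism, all tested, 1 was called higher and 2 lower, with a median log2 fold change of 0.01 (-0.04 without MTR4 KD replicate 3), and the called genes all belong to one family. They code for subunits that bring protein phosphatase 1 to glycogen, where it activates glycogen synthase and inactivates phosphorylase. PPP1R3C gave 18.9, 19.3 and 16.4 CPM in the controls and 9.50, 9.70 and 8.64 CPM in the MTR4 KD replicates, with no overlap. Its log2 fold change was -0.97 (SE 0.0972, adjusted p = 0.00328, edgeR), and it was called in all 15 alternatives that refit all genes. PPP1R3G fell from 1.92 ± 0.275 to 0.672 ± 0.0682 CPM (SD, n = 3 each), with a log2 fold change of -1.51 (adjusted p = 0.0102, edgeR). PPP1R3E rose from 8.17 ± 0.160 to 12.9 ± 1.03 CPM (SD, n = 3 each), with a log2 fold change of 0.66 (adjusted p = 0.0104, edgeR).

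The other 2 subunits on the list, PPP1R3B, the main form in liver, and PPP1R3D, did not pass the test (log2 fold change 0.10 with adjusted p = 0.677, and -0.05 with adjusted p = 0.864, edgeR). Per length, the share of PPP1R3C in the summed level of the 5 listed subunits was 39.3 ± 2.18% in the controls and 23.8 ± 1.27% in the MTR4 KD libraries, and that of PPP1R3E was 8.10 ± 0.493% and 15.1 ± 1.41% (SD, n = 3 each). The calls of PPP1R3E and PPP1R3G were each lost without control replicate 1 or 3 or MTR4 KD replicate 1 or 2, with adjusted p between 0.0513 and 0.0789 for PPP1R3E and between 0.0595 and 0.0745 for PPP1R3G (edgeR). With the library class as a covariate 3 of the 26 genes were called higher (PPP1R3E, GYG2 and STBD1) and 7 lower, beside 9.43% and 10.8% of all tested genes.

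**Figure D4:**
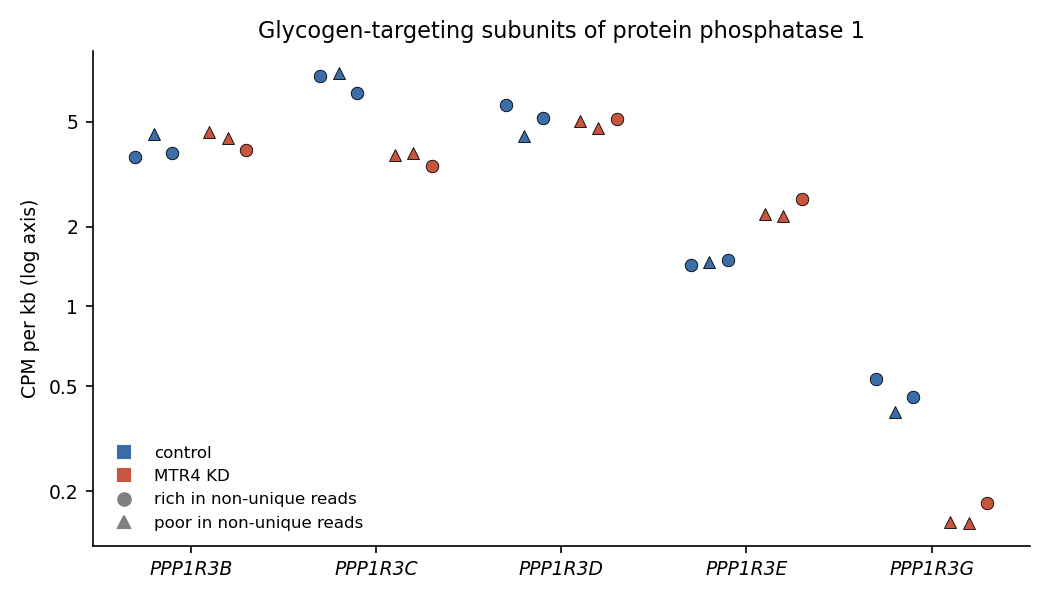
Level of the 5 listed glycogen-targeting subunits of protein phosphatase 1 in each library, in CPM per kb on a log axis, with points coloured by condition and shaped by library class. PPP1R3C and PPP1R3G lie lower and PPP1R3E higher in all 3 MTR4 KD libraries, while the points of PPP1R3B and PPP1R3D mix.

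The 28 genes for regulators of hepatic gluconeogenesis, among them PPARGC1A, FOXO1, HNF4A, the kinase SIK1 and the glucagon receptor GCGR, were all tested. The test of edgeR called 0 of them, beside 1.48% of all tested genes called higher and 2.12% called lower. At an unadjusted p under 0.05 it was 3 higher (IRS1, NR3C1 and PRKACB) and 2 lower (PRKAA1 and ATF4), and DESeq2's Wald test called 1 (IRS1). Their median log2 fold change was 0.05. With the library class as a covariate 6 were called higher (CEBPA, MLXIPL, KLF15, IRS1, NR3C1 and PRKACB) and 4 lower (CEBPB, INSR, ATF4 and PRKAA1). In that fit 9.43% of all tested genes were called higher and 10.8% lower. The genes named for the fit with the library class and for the regulators were chosen after their values were seen.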

How the data were processed

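Total RNA of the PLC/PRF/5 cells was sequenced on Illumina libraries. The authors deposited raw counts of reads per Ensembl gene in each of the 6 libraries, without normalization, and per the labels the reads were aligned with HISAT2 2.1.0 to GRCh38 and counted with HTSeq. The submitters' notes also name DESeq2. The options of the counting are not given in the sources used here. Entries that name no gene (not unique, ambiguous, no feature, low quality) made up 37.8% to 49.3% of a library and were left out of library sizes and tests.

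Genes were kept by edgeR's filterByExpr (minimum count 10) and scaled by TMM. The quasi-likelihood test of edgeR 4.0.16 (R 4.3.3) compared MTR4 KD with control, with no other term in the model, and genes were called at an adjusted p under 0.05. Standard errors are the log2 fold change over the square root of F. CPM per kb are CPM over the union of exon bases in a GENCODE annotation lifted to GRCh37, not the annotation of the counting, which held 56959 of the counted genes. The union covers every annotated exon, so it is at least as long as any single transcript of the gene. Orders, shares and summed levels per length therefore depend on the annotation, and the fold change of a single gene does not. Positions and promoters came from RefSeq tables on GRCh38. The scripts were tested on simulated data.

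The 10 genes and all other lists were chosen with earlier results of these data known. The text names MTR4, ACTB, the 10 genes, the glycolytic genes of a ratio and, from each other list, at most 3 genes per direction with the smallest adjusted p under 0.05. Genes outside this rule (GYS2, FBP2, PPP1R3B, PPP1R3D, the regulators and the genes that overlap a listed gene) are named as counterparts and were chosen with values known. The values of 1 glycolytic gene are not reported here. The alternatives were DESeq2's size factors, total counts, counts relative to ACTB, no filter, a filter of 1 CPM in at least 3 libraries, DESeq2 1.42.0, limma-voom (limma 3.58.1), the replicate number as a block, the library class as a covariate (over or under 30% non-unique reads), each library left out, and a fold change over 2 beside the adjusted p. Every pair of libraries of a condition differed by more than sampling noise (chi-square per degree of freedom between 4.63 and 93.7), so each was counted as 1 replicate. Pairs of the same library class gave 4.63 and 7.985, and pairs of different classes between 84.25 and 93.7. These values do not show that the libraries came from separate cultures. Intervals cover the spread between libraries, and the allowance for a count of 0 covers counting error only. The CVs of the 9 tested genes over the controls lay between 1.57% and 11.5%, and at the low end counting error can be of similar size.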

Additional observations from a re-analysis of the deposited data

How the results depend on the processing

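Of all tested genes 650 were called, against 1363 by DESeq2's Wald test, 3649 with the library class, 150 with a fold change over 2 required, and 137 (without MTR4 KD replicate 2) to 803 (without control replicate 2) with a library left out. Fewer libraries leave fewer residual degrees of freedom. Among the listed genes the higher calls went from 0 to 1 with the library class, and the lower calls from 2 to 0 relative to ACTB, to 0 with a fold over 2 required, and to between 0 and 2 with a library left out. The glycolytic calls went from 10 to 16 with the library class, 5 with a fold over 2, and between 6 and 12 with a library left out. The other gluconeogenesis calls went from 3 to 5 by DESeq2, 8 with the library class, 0 with a fold over 2, and between 1 and 3 with a library left out. The other glycogen calls went from 3 to 10 with the library class, 1 with a fold over 2, and between 1 and 3 with a library left out. The regulator calls went from 0 to 1 relative to ACTB, 1 by DESeq2 and 10 with the library class. Against ACTB the median log2 fold change was 0.033 for the listed genes and 0.12 for other gluconeogenesis, and single values were 0.024 for G6PC3, 0.033 for SLC37A4, 0.024 for GYS1, 0.16 for UGP2 and 0.086 for PFKL. Values near 0 also changed sign elsewhere, PCK1 (-0.0064 with the library class, -0.038 to 0.055 with a library left out), PCK2 (-0.0047 without a filter, -0.078 to 0.054), HKDC1 (-0.0069 with the library class, -0.014 to 0.12) and UGP2 (-0.067 to 0.055). PYGM (-0.82 to 1.70) and GYS2 (-0.75 to 0.23), with few reads, changed sign when a library was left out. The difference between MTR4 KD and control in the log2 ratio of fructose bisphosphatase to phosphofructokinase was 0.58 in the library class rich and -1.31 in the class poor in non-unique reads, and -0.69 to 0.37 with a library left out, and the difference for glycogen synthase to phosphorylase was 0.048 with the top isozymes. The cause of these moves was not tested. With the replicate number as a block, 342 genes were called higher and 515 lower, 0 and 2 of them listed genes and 1 and 11 of them glycolytic, and no listed gene changed its call, while ALB and KRT18 lost theirs. Deviations of same-numbered libraries correlated across genes by -0.24, 0.32 and 0.35, and not every library correlated best with its own number. The libraries of replicate 1 differ in class, while those of replicates 2 and 3 share a class. The correlations follow the class, so they cannot decide whether the numbers pair the samples. Control and MTR4 KD libraries of the same class correlated by 0.32 to 0.36, and those of different classes by -0.49 to -0.23. The variation between libraries that edgeR estimated (biological CV) was 0.175 with condition only and 0.0573 with the library class as a covariate. FBP1 was limited by depth, with at most 5 reads in a library.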

Other observations

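PYGM, the muscle glycogen phosphorylase, had 11, 15 and 12 reads in control replicates 1, 2 and 3, and 8, 6 and 70 reads in MTR4 KD replicates 1, 2 and 3, so its fitted log2 fold change of 1.20 (adjusted p = 0.543, edgeR) rests on MTR4 KD replicate 3, and it was -0.82 without that library. It was named after its values were seen.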
